A study of Mus musculus with 28 samples.

Results

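The genes described are 46 interferon-stimulated genes of mouse skin, chosen by name for their known response to type I interferon and matched through their Ensembl identifiers. All 46 were found among the 51976 genes that the count tables of both experiments share, and all 46 passed the filter on low counts in each experiment. RNA of whole skin was sequenced from 28 mice after removal of ribosomal RNA, in 8 groups of genotype by ultraviolet B light (UVB). Each library is a biological replicate per the design text. UV groups received 500 mJ/cm2 of UVB, and the NoUV groups received none. The titles and the design text put the harvest 3 h after the exposure, whereas the treatment protocol puts it 1 day after, and the labels do not settle which holds.

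The whole-body experiment had 3 mice per group, wild type (WT) or Vsir-/- (KO), each with and without UV. Vsir encodes VISTA, an inhibitory receptor and ligand best known from myeloid cells and T cells. The keratinocyte experiment had 4 mice per group: Vsir fl/fl controls without Cre in their label (FL) and K14creVsir fl/fl mice (cKO), each with and without UV. Cre driven by the K14 promoter is made in keratinocytes, so other skin cells of a cKO mouse keep the gene. Female mice, 12 weeks old, were shaved and depilated 5 days before the exposure, and the controls were littermates per the design text. The tissue is labelled skin but called epidermis in the series title, and markers of muscle, fibroblasts and keratinocytes were present in all libraries.

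Vsir, the deleted gene, was at 46.1, 34.6 and 34.5 counts per M reads counted (CPM, scaled for composition with TMM) in unirradiated WT libraries and at 6.87, 6.5 and 5.07 in unirradiated KO libraries. After UV it was at 21.98, 20.2 and 23.96 in WT and 3.24, 3.76 and 1.98 in KO. It was lower in KO under both conditions (log2FC -2.64, SE 0.23, adjusted p = 0.00047 without UV and log2FC -2.89, SE 0.24, adjusted p = 0.000332 with UV, edgeR quasi-likelihood test, Benjamini-Hochberg adjustment over all genes). Whole-skin counts of Vsir were not lower in the libraries labelled cKO, at 17 to 44.96 CPM against 19.4 to 38.54 in FL without UV and 14.49 to 39.62 against 24.98 to 36.33 with UV (adjusted p = 0.923 and 0.986). The name cKO is therefore used below for the library labels, and every direction between cKO and FL rests on those labels. Library totals ran between 30.47 and 43.84 M counts for WT and KO and between 7.12 and 31.14 M for FL and cKO, where 1 FL_NoUV and 1 cKO_UV library lay under 10 M. A limit of 3 counts equals 0.0684 to 0.0985 CPM and 0.0963 to 0.4215 CPM in these experiments (counting error only), and FL_NoUV 1 held no more than 3 counts of Oasl1 and of Bst2.

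Type I interferons bind the receptor IFNAR, whose kinases activate STAT proteins, among them STAT2. With IRF9 they form ISGF3, a complex that binds the interferon-stimulated response element (ISRE) in promoters. The induced genes encode proteins that bind viral RNA (IFIT family), make and relay oligoadenylate (OAS family), block viral nucleocapsids (Mx family), or conjugate and remove the ubiquitin-like ISG15 (Isg15, Ube2l6, Herc6, Usp18). IRF7, itself induced, drives more interferon transcription. In skin, UVB is known to raise this group of genes, and keratinocytes, plasmacytoid dendritic cells and monocytes are known as sources of interferon.

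RefSeq promoter windows of the GRCm38.p6 build, reaching from 250 bases before to 50 after the gene start, were matched to 35 of the 46 genes. The ISRE core (GAAA, any 2 bases, GAAA), searched on both strands, occurred in a window of 16 of the 35 genes (45.7%) and of 1079 of all 27025 genes with a window (3.99%), where a gene with several starts counted once. The STAT dimer motif TTCNNNGAA, also on both strands, occurred in a window of 6 of the 35 genes (17.1%) and of 2582 of all genes (9.55%). The stretches below are of genes described further on whose window holds the core, each with neighbouring bases and written 5′ to 3′ along the gene's strand, with the matched bases in capitals.

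Ifit1: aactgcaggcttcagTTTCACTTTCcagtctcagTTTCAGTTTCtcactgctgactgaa
Ifit3: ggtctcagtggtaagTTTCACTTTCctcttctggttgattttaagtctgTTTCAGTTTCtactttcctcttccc
Isg15: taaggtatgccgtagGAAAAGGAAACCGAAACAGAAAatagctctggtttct
Stat2: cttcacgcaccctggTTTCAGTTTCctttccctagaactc
Rsad2: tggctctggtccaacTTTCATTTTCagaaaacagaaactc
Slfn5: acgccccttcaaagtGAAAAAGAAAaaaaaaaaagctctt
Trim30a: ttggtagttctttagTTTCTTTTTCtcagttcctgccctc

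Ifit1 lies on chromosome 19, and its stretch (chr19:34640770-34640828, plus strand) holds 2 matches between 104 and 76 bases before the start. Ifit3 (chr19:34583358-34583431, plus strand) holds 2 matches between 156 and 113 bases before its start, and the stretch of Ifit3b (chr19:34607754-34607827, plus strand) has the identical sequence. In Isg15 (chr4:156200860-156200911, minus strand) 3 overlapping matches form 1 run that ends 57 bases before the start. Stat2 (chr10:128270261-128270300, plus strand), Rsad2 (chr12:26456548-26456587, minus strand), Slfn5 (chr11:82951932-82951971, plus strand) and Trim30a (chr7:104465205-104465244, minus strand) have 1 match each. A match is a description of letters, and binding was not measured. The windows of Irf7 and Helz2 held no match, and Mx1, Mx2, Oas2, Usp18, Rtp4, Dhx58, Zbp1, Ifi27, Ifi27l2a, Parp9 and Parp14 were not among the windows used. Of the genes without a stretch shown, Helz2 lies at chr2:181227615-181242027 and Irf7 at chr7:141262706-141266481, both on the minus strand, in the GRCm38 positions of the whole-body count table. Oas2 lies at chr5:120730333-120749853 and Mx1 at chr16:97447035-97462907, also on the minus strand.

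Per kilobase of gene length, Ifitm3, which restricts viral entry at membranes, was the most abundant of the 46 genes in all 8 groups. In unirradiated WT skin the levels of Ifitm3, Ifi27l2a and Ifi27 were 176 ± 88.0, 54.7 ± 43.3 and 32.2 ± 10.3 CPM per kilobase (SD, n = 3). The spread of Ifi27l2a spans that of Ifi27, so their order is not resolved. At the low end were Oasl1 (0.365 ± 0.312), Oas3 (0.335 ± 0.308) and Mx2 (0.278 ± 0.177 CPM per kilobase), which do not differ beyond their spread. In unirradiated FL skin the highest levels were those of Ifitm3 (92.6 ± 25.9), Ifi27l2a (18.6 ± 11.4) and Trim25 (13.6 ± 3.16 CPM per kilobase, SD, n = 4), and the same 3 genes were lowest, with Mx2 at 0.202 ± 0.103. The module therefore spans a wide range of abundance in resting skin, and the low members rest on few counts.

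The plot of all 46 genes by library gives the level of each gene relative to its mean over the experiment.

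**Figure D1:**
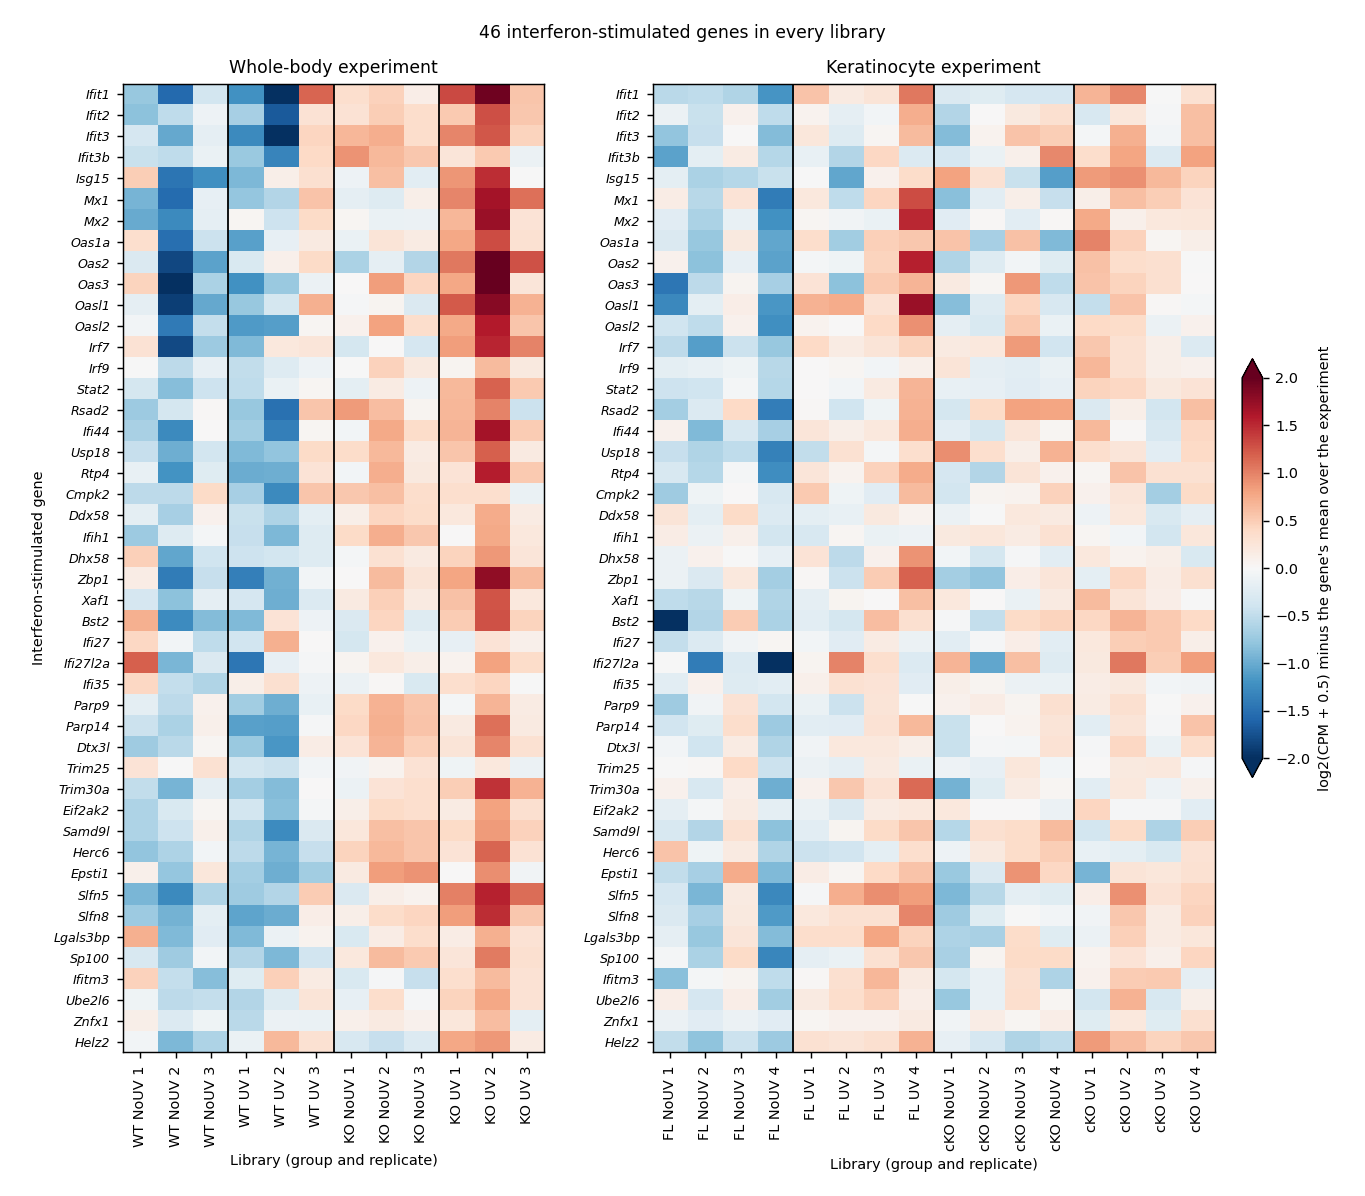
Each row is 1 of the 46 genes and each column 1 library, with the whole-body experiment on the left and the keratinocyte experiment on the right; color is log2(CPM + 0.5) minus the gene's mean over the experiment. KO_UV 2 is the highest of the 12 whole-body libraries for 40 genes, and FL_NoUV 4 is the lowest of the 16 keratinocyte libraries for 23 genes.

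In WT skin few of these genes differed between UV and NoUV. Helz2, a helicase that coactivates nuclear receptors, rose, and Trim25, a ubiquitin ligase that supports RIG-I signalling, fell. Helz2 was at 18.6, 10.1 and 12.5 CPM without UV and 17.7, 30.7 and 24.1 with UV (log2FC 0.81, SE 0.26, adjusted p = 0.0447). The groups overlapped, since WT_UV 1 lay below WT_NoUV 1. In whole skin, fewer or more cells of a type and less or more RNA per cell cannot be told apart. Trim25 was at 89.1, 73.1 and 91.02 CPM without UV and 56.8, 54.3 and 70.95 with UV (log2FC -0.48, SE 0.16, adjusted p = 0.0496), and every UV library lay below every NoUV library. Thus 1 of 46 genes was called higher against 8.91% of all 20365 genes tested, and 1 was called lower against 9.84%. No gene of the 46 had every UV library above every NoUV library, against 14.5% of all genes.

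Effectors of the pathway varied widely among the irradiated WT mice. Ifit1, which binds viral RNA that lacks cap methylation, was at 6.92, 3.79 and 9.29 CPM without UV and 4.91, 2.59 and 27.7 with UV. Ifit3, its binding partner, was at 6.15, 3.63 and 6.87 against 2.94, 1.54 and 10.8. WT_UV 3 was above and WT_UV 2 below every NoUV library for both genes. Rsad2, which makes a chain-terminating nucleotide, was at 6.12, 8.02 and 10.6 without UV and 5.94, 3.36 and 15.5 with UV. Usp18, which removes ISG15 and dampens the receptor, was at 4.03, 2.65 and 4.33 against 2.87, 3.12 and 7.6. Again only WT_UV 3 stood above its unirradiated controls.

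Isg15, the ubiquitin-like modifier, was at 4.58, 0.82 and 1.05 CPM without and 1.45, 3.42 and 4.01 with UV. Mx1, a GTPase against RNA viruses, was at 2.14, 1.23 and 4 against 2.45, 2.87 and 7. Oas2, an oligoadenylate synthetase, was at 8.99, 2.78 and 5.05 against 8.91, 11.96 and 14.7, and was the nearest of the fixed genes to a call (log2FC 1.07, adjusted p = 0.0624). Each of these comparisons overlapped. For Oasl1, an OAS-like protein without synthetase activity, the libraries were at 1.83, 0.22 and 0.81 against 1.07, 1.57 and 3.84 CPM. Irf7 was at 18.4, 3.94 and 8.87 without and 7.84, 17.3 and 17.8 with UV, and Stat2 at 33.97, 23.95 and 32.55 against 30.4, 39.9 and 44.9. WT_NoUV 1 held the highest unirradiated value of Isg15, Oas2, Oasl1, Irf7 and Stat2.

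By role, all 4 sensors of RNA or DNA (Ddx58, Ifih1, Dhx58, Zbp1) had a fitted change below 0, and so did Parp9 and Parp14, which act with Dtx3l in ADP-ribosylation, with none called. The median log2FC over the 46 genes was -0.03, beside -0.01 over all genes, and 21 of the 46 lay above 0. The call of Helz2 ended without any 1 of 9 libraries, namely WT_NoUV 2 or 3, WT_UV 2 or 3, any KO_NoUV library, KO_UV 1 or KO_UV 2 (adjusted p from 0.05864 to 0.1755). That of Trim25 ended without WT_NoUV 1 or 3, WT_UV 1 or 2, any KO_NoUV library, KO_UV 1 or KO_UV 3 (0.05772 to 0.1605), so both calls are marginal. Without WT_NoUV 1, 6 genes were called higher.

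**Figure D2:**
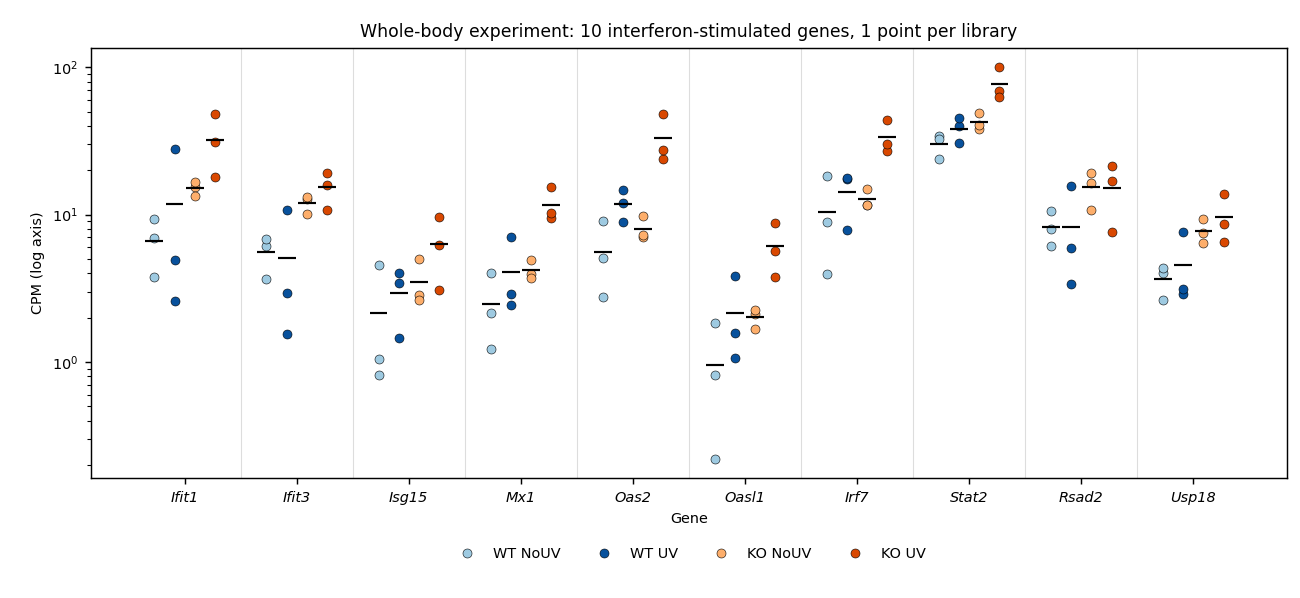
CPM on a log axis (y) for 10 fixed genes (x) in the whole-body experiment, with 1 point per mouse and a bar at the mean of each group of 3. KO UV points are the highest group for Oas2, Stat2 and Irf7, whereas the WT UV points of Ifit1 reach from 2.59 to 27.7 CPM.

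UV in KO skin was followed by higher levels of 6 of the 46 genes: Oas2, Slfn5, Stat2, Helz2, Mx1 and Irf7. Oas2 showed the largest of these changes. It was at 7, 9.77 and 7.27 CPM in unirradiated KO libraries and at 23.7, 48.5 and 27.6 after UV (log2FC 2.05, SE 0.38, adjusted p = 0.00236). All 3 irradiated libraries lay far above the unirradiated ones. Slfn5, a Schlafen family protein that can repress transcription, rose from 134, 178 and 172 to 328, 474 and 356 CPM (log2FC 1.26, SE 0.29, adjusted p = 0.00843), without overlap. Neither call ended when any 1 library was left out.

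The transcription factors Stat2 and Irf7 rose together with them. Stat2, the ISGF3 subunit, was at 37.9, 48.7 and 40.6 CPM without and 68.7, 99.85 and 63.02 with UV (log2FC 0.86, SE 0.21, adjusted p = 0.0104). Irf7 was at 11.7, 15.02 and 11.7 without and 27.15, 43.8 and 30.2 with UV (log2FC 1.40, SE 0.44, adjusted p = 0.0362). Neither pair of groups overlapped, while Irf9, the third factor of the list, was not called. Mx1 was at 3.93, 3.72 and 4.95 CPM without UV and 9.45, 15.4 and 10.3 with UV (log2FC 1.48, SE 0.43, adjusted p = 0.0253). Helz2 was at 15.5, 13.9 and 15.98 against 33.4, 35.9 and 21.8 (log2FC 1.01, SE 0.26, adjusted p = 0.0145), also without overlap.

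Several classic effectors moved less clearly in KO skin. Oasl1 was at 2.11, 2.26 and 1.68 CPM without and 5.69, 8.84 and 3.78 with UV, with no overlap but no call (log2FC 1.59, adjusted p = 0.0631). Ifit1 was at 15.4, 16.7 and 13.3 against 31.02, 47.8 and 18, also separate and also not called. Isg15 was at 2.86, 4.97 and 2.63 against 6.18, 9.6 and 3.1, which overlap through KO_UV 3. Ifit3 was at 12.8, 13.25 and 10.1 against 15.97, 19.3 and 10.8, Rsad2 at 19.25, 16.3 and 10.8 against 16.9, 21.3 and 7.57, and Usp18 at 7.55, 9.28 and 6.45 against 8.69, 13.7 and 6.52. Overlap was present in all 3, and KO_UV 2 held the highest value of each.

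In KO skin 6 of 46 genes were called higher, beside 11.3% of all genes, and 0 were called lower, beside 11.1% of all genes. Of the 46, 10 had an unadjusted p under 0.05, a smaller share than the 7088 of all 20365 genes. Every UV library lay above every NoUV library for 16 of the 46 genes, against 25.3% of all genes tested. The share called is thus near that of all genes. For Ifit3b and Cmpk2 every UV library lay below every NoUV library, a direction whose share over all genes was not computed. The median log2FC was 0.44, beside 0.02 over all genes, and 38 of 46 genes lay above 0; without KO_UV 2 they were 0.12 and 29. Without KO_NoUV 1 or without KO_UV 2 the count was 2, and without KO_NoUV 2 to 3. The call of Stat2 ended without KO_NoUV 1 (adjusted p = 0.05519) or KO_UV 2 (0.06516). Calls of Helz2 ended without KO_NoUV 1 or 2 or KO_UV 1 or 2 (0.05122 to 0.06993), those of Mx1 without any KO_NoUV library, KO_UV 2 or KO_UV 3 (0.05034 to 0.1029), and that of Irf7 without any 1 of the 6 KO libraries (0.05809 to 0.1323). KO_NoUV 2 and KO_UV 3 differed from the rest in composition: the non-coding gene Gm42418 took 7.21 to 14.1% of counts in the other 10 whole-body libraries, whereas the top gene of these 2 was mt-Co1, at 2.15 and 3.01%. Without both, a choice made after seeing the data, only Oas2 and Stat2 were called.

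**Figure D3:**
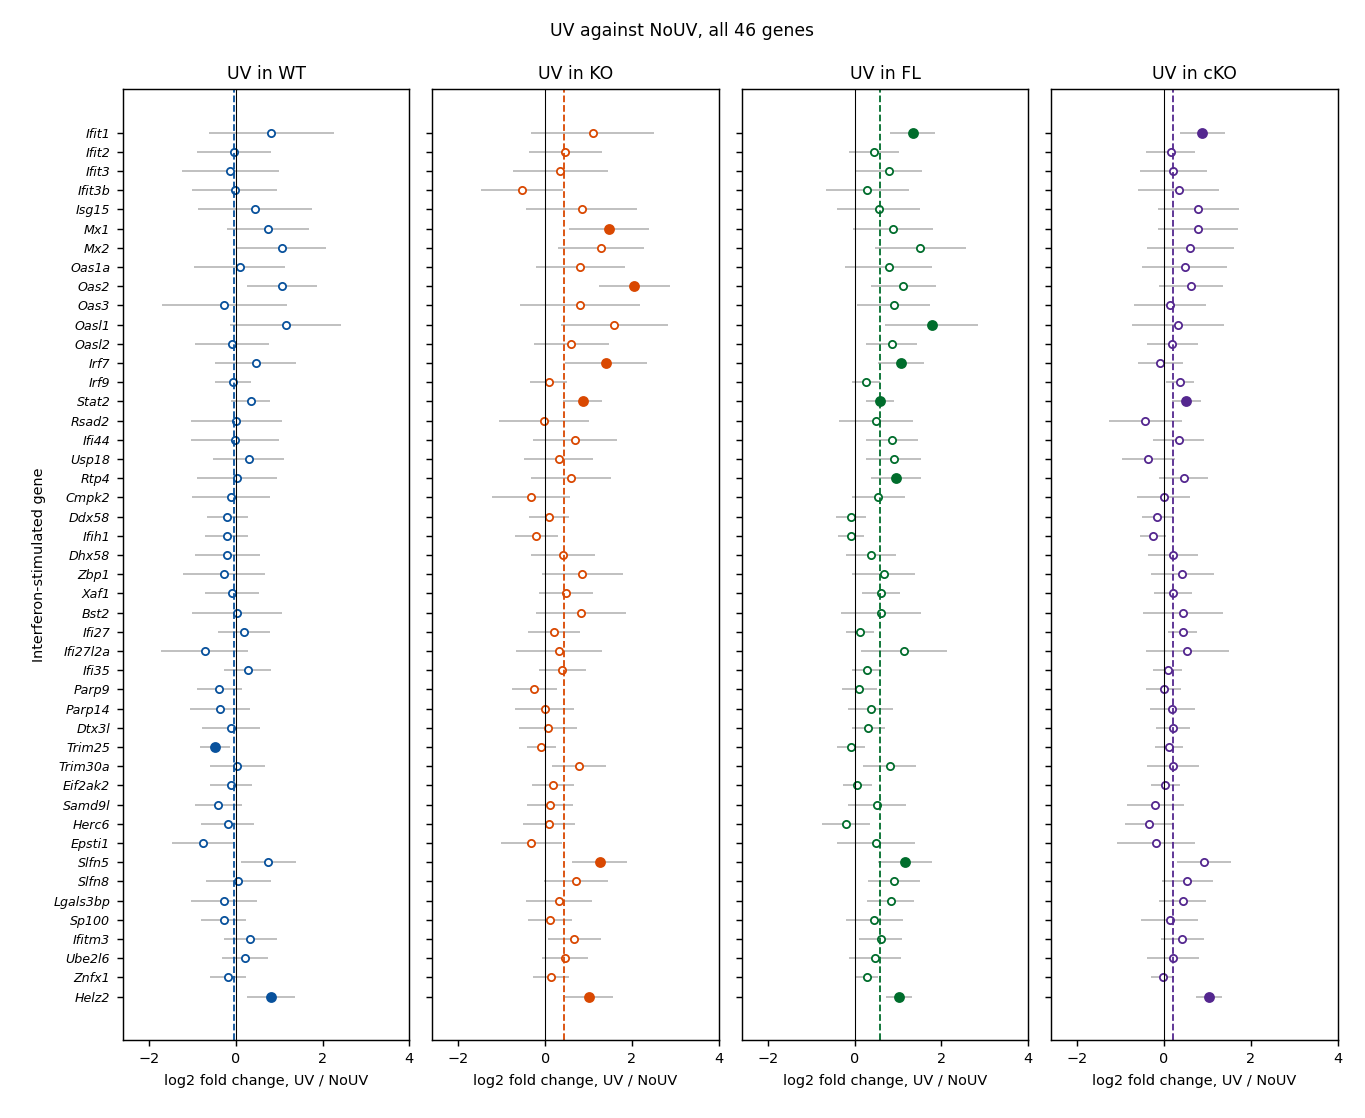
Log2 fold change of UV against NoUV (x) for each of the 46 genes (y) in WT, KO, FL and cKO skin, with 95% intervals from the fit; filled points passed an adjusted p of 0.05 and the dashed line is the median of the 46. The medians are -0.03, 0.44, 0.59 and 0.21, and Helz2 is filled in all 4 panels.

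Between genotypes, most of the 46 genes had higher values in KO than in WT skin, already without UV, although none passed the adjusted threshold of the edgeR test. Of the 46, 42 lay above 0 without UV and 45 with UV, Ifi27 being the exception after UV. Without UV the 3 genes of smallest p were Ifih1, Herc6 and Sp100. Ifih1, which encodes the RNA sensor MDA5, was at 24.9, 34.96 and 40.55 CPM in WT and 54.8, 69.5 and 61.05 in KO (log2FC 0.89, SE 0.23, adjusted p = 0.144). Herc6, the mouse ligase that attaches ISG15, was at 4.52, 5.14 and 7.79 against 11.2, 13.1 and 12.2 (log2FC 1.07, SE 0.28, adjusted p = 0.144). The nuclear body protein Sp100 was at 26.6, 20.2 and 31.98 against 38.5, 51.9 and 48.1 (log2FC 0.815, SE 0.24, adjusted p = 0.165). In all 3 genes the WT and KO libraries did not overlap.

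The fixed genes show the same layout in the values given above. Unirradiated KO libraries were at 13.3 to 16.7 CPM of Ifit1, beside 3.79 to 9.29 in WT, and at 10.1 to 13.25 CPM of Ifit3, beside 3.63 to 6.87. Usp18 was at 6.45 to 9.28 CPM in KO and 2.65 to 4.33 in WT, and Rsad2 at 10.8 to 19.25 and 6.12 to 10.6. Stat2 was at 37.9 to 48.7 CPM in KO and 23.95 to 34.0 in WT. These 5 genes had no overlap, whereas Isg15, Mx1, Oas2, Oasl1 and Irf7 did. For Ifit3, Usp18 and Stat2 the fitted log2FC was 1.12, 1.08 and 0.49, with an unadjusted p under 0.05 and no call.

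Over the module, 0 of the 46 genes were called between unirradiated KO and WT skin by edgeR, beside 0.00982% of all genes. An unadjusted p under 0.05 was found for 21, all of them higher in KO, beside 3219 of all 20365 genes in either direction. DESeq2 called 3, namely Ifih1, Herc6 and Sp100, beside 3.1% of the genes to which it gave an adjusted p. Every KO library lay above every WT library for 23 of the 46, against 12.8% of all genes. The median log2FC was 0.75, beside -0.01 over all genes. By role, all 4 IFIT genes, both PARP genes and both Schlafen genes had no overlap, against 1 of 5 OAS genes and 0 of 2 Ifi27 genes.

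After UV the differences of KO from WT had a larger fitted median in each of the roles. Samd9l, a translation inhibitor, was at 25.7, 16.2 and 32.04 CPM in WT and 51.5, 71.4 and 54.65 in KO (log2FC 1.26, SE 0.25, adjusted p = 0.0733). Sp100 was at 22.1, 17.6 and 25.3 against 39.4, 68.95 and 41.8 (log2FC 1.21, SE 0.24, adjusted p = 0.0733). Trim30a, a TRIM family regulator of inflammatory signalling, was at 15.65, 13.7 and 25.7 against 36.2, 70.2 and 41.8 (log2FC 1.43, SE 0.295, adjusted p = 0.0829). None of the 3 overlapped, and none was called. Stat2 (log2FC 1.01, SE 0.21, adjusted p = 0.0857), Oas2 (log2FC 1.49, SE 0.37, adjusted p = 0.134), Irf7 (log2FC 1.235) and Mx1 (log2FC 1.51) did not overlap either, with KO_UV values of 63.0 to 99.85, 23.7 to 48.5, 27.15 to 43.8 and 9.45 to 15.4 CPM. In contrast, Ifit1, Isg15, Oasl1, Rsad2 and Usp18 overlapped, each through a high WT_UV 3 or a low KO_UV 3.

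By edgeR 0 of the 46 genes were called between irradiated KO and WT skin, beside 0.0442% of all genes. The smallest adjusted p was 0.0733, and 34 of the 46 had an unadjusted p under 0.05, beside 3071 of all 20365 genes. DESeq2 called 20 of the 46, all higher in KO, beside 2.24% of the genes to which it gave an adjusted p. No WT library reached any KO library for 31 of the 46, against 12% of all genes, and the median log2FC was 1.11, beside 0.03. All 5 OAS genes lay above 0 with a median of 1.49, and all 4 sensors with a median of 0.94; among the 7 genes of the ISG15 and ubiquitin system the median was 1.08. Without WT_NoUV 1 edgeR called 5 of the 46 and without WT_UV 3 it called 4, and with no filter on low counts 8.

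Markers of other cell types also differed between WT and KO. The summed level of 10 keratinocyte genes was 26550 to 38430 CPM in WT_NoUV and 22700 to 34800 in WT_UV, but 16600 to 19980 in KO_NoUV and 13200 to 19430 in KO_UV, so WT and KO did not overlap. Muscle markers were at 8278 to 14300 CPM in WT_NoUV and 17330 to 23100 in KO_NoUV. Those of monocytes and macrophages (13 genes) overlapped, at 680 to 1215 and 883.7 to 1349 CPM without UV and 848.5 to 1448 and 1167 to 2225 with UV, with KO_UV 2 highest, and each of the 13 exceeded 3 counts in at least 1 library. The 9 genes listed for plasmacytoid dendritic cells, among them Cox6a2, Klk1, Runx2 and Bcl11a, summed to 89.56 to 115 CPM in WT_NoUV and 99.92 to 108.8 in KO_NoUV. What other skin cells add to this sum was not tested, so it is not a measure of these cells. T cell markers were at 213.6 to 244.3 CPM in WT_NoUV and 232.6 to 257.6 in KO_NoUV, and 10 of the 13 had a fitted change above 0. Those of dendritic and Langerhans cells were at 415.5 to 432.3 CPM in WT_NoUV and 505.2 to 630.1 in KO_NoUV, with 10 of 10 above 0. Hair follicle markers were lower in every KO library than in any WT library of the same condition, at 45.28 to 119 CPM in WT_NoUV, 40.18 to 44.66 in KO_NoUV, 18.66 to 104.4 in WT_UV and 9.846 to 16.85 in KO_UV, with all 10 tested below 0 under both conditions. Neutrophil markers had a median log2FC of -1.71 without UV, with 6 of 7 below 0, and of 0.05 with UV. Fibroblast markers were at 7166 to 9697 CPM in WT_UV and 11930 to 15420 in KO_UV. All 13 monocyte and macrophage markers had a fitted change above 0 with UV (median 0.48), and 8 of 13 without. No gene of these lists was called between KO and WT. The part of these markers in the gene differences was not tested.

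**Figure D4:**
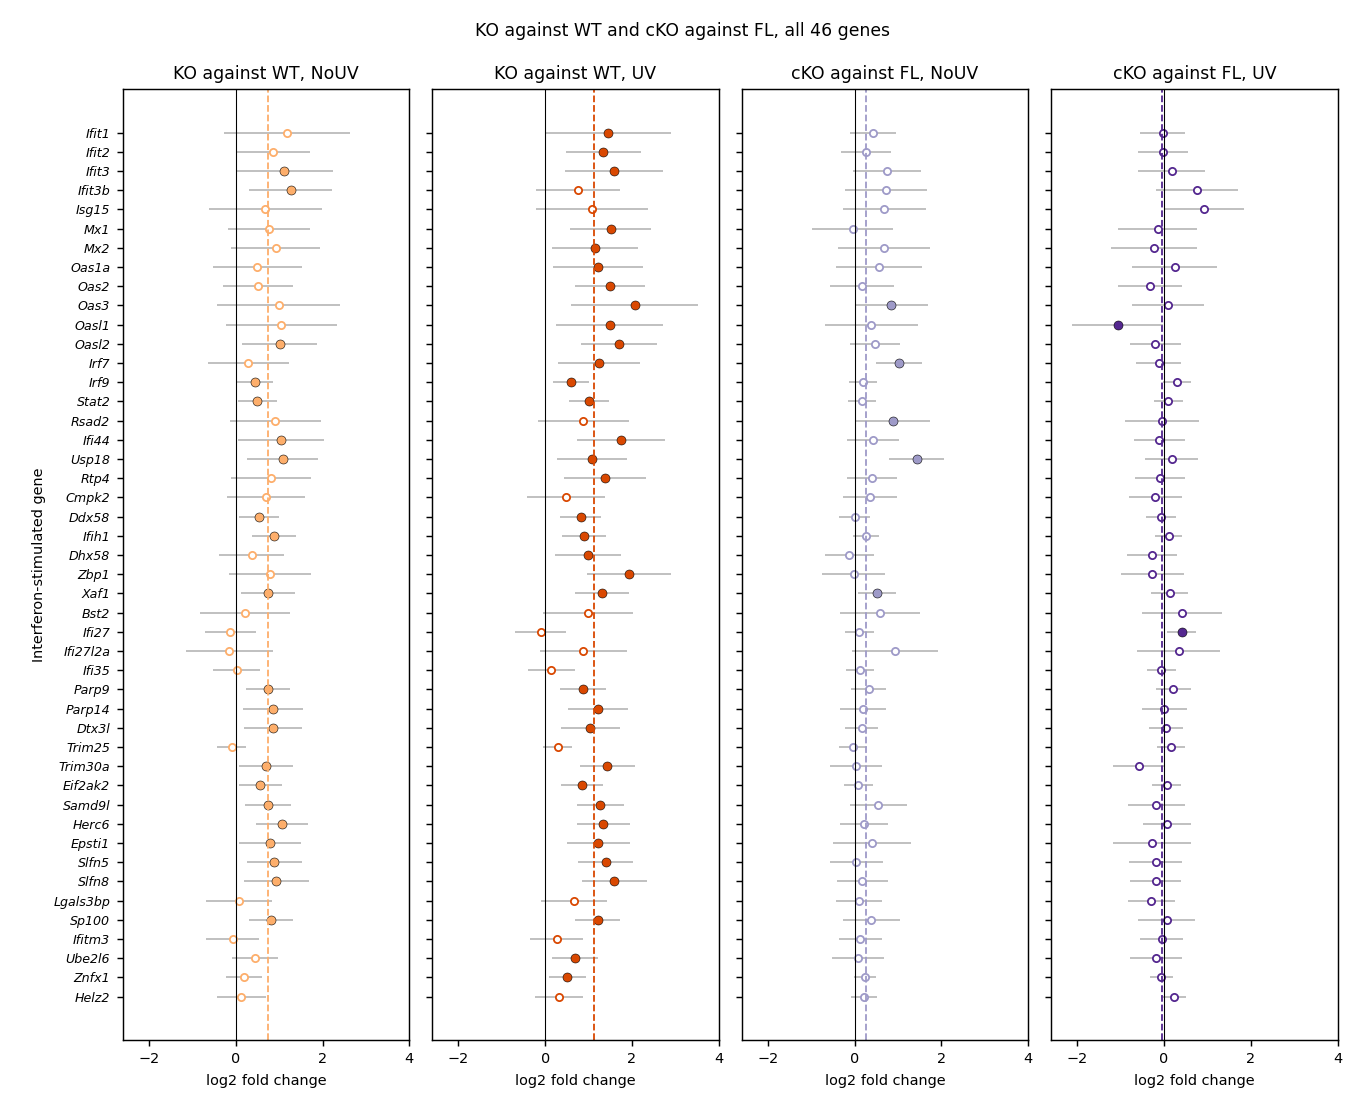
Log2 fold change of KO against WT and of cKO against FL (x), each without and with UV, for the 46 genes (y), with 95% intervals from the fit; filled points have an unadjusted p under 0.05 and the dashed line is the median. In KO against WT the medians are 0.75 and 1.11, and no gene passed the adjusted threshold in any of the 4 panels.

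Whether UV acted differently in KO and WT skin was tested as the difference of the UV effects. None of the 46 genes was called (0% of all genes were), and 0 were called by DESeq2 (0% of all genes). An unadjusted p of 0.05 was reached by 0 of the 46, beside 313 of all 20365 genes. The fitted difference was above 0 for 43 of 46, with a median of 0.42. Without KO_UV 2 the median was 0.08 and 32 of 46 lay above 0, and the median was 0.255 without WT_NoUV 1, 0.256 without WT_NoUV 3, 0.27 without KO_NoUV 1 and 0.69 without WT_UV 3. All 13 monocyte and macrophage markers (median 0.51) and all 7 neutrophil markers tested (median 1.25) also lay above 0. Below 0 were all 10 dendritic and Langerhans cell markers (median -0.32) and all 10 muscle markers (median -0.44). So were 10 of 13 T cell markers (median -0.465) and 7 of 8 adipocyte markers (median -0.21). The part of these markers was not tested. Oas2 had the smallest p (0.0831), followed by Zbp1, a sensor of Z-form nucleic acids, and Trim30a. The calls in KO and not in WT therefore do not show a difference in UV response, and both contrasts share their fit.

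In FL skin, the controls of the keratinocyte experiment, UV was followed by higher levels of 7 of the 46 genes: Helz2, Ifit1, Irf7, Slfn5, Stat2, Oasl1 and Rtp4. Helz2 was at 24.4, 19.4, 25.3 and 20.6 CPM without UV and 42.7, 41.1, 43.1 and 55.85 with UV (log2FC 1.03, SE 0.14, adjusted p = 0.000669). Ifit1 was at 5.52, 5.67, 5.29 and 3.35 against 12.5, 9.45, 9.95 and 17.7 (log2FC 1.33, SE 0.25, adjusted p = 0.0041). Neither overlapped, and neither call ended when any 1 library was left out. Irf7 was at 6.8, 4.43, 7.33 and 5.7 without and 13.3, 11.3, 12.2 and 13.9 with UV (log2FC 1.07, SE 0.25, adjusted p = 0.0165), also without overlap.

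Slfn5 was at 84.98, 56.8, 121 and 43.4 CPM without UV and 106, 178, 205 and 192 with UV (log2FC 1.15, SE 0.29, adjusted p = 0.024), with an overlap between FL_NoUV 3 and FL_UV 1. Stat2 was at 27.9, 28.3, 36.6 and 25.1 against 37.7, 36.1, 42.35 and 60.45 (log2FC 0.58, SE 0.16, adjusted p = 0.0314), where FL_NoUV 3 exceeded FL_UV 2. Oasl1 was at 0.42, 1.46, 1.98 and 0.5 against 3.15, 3.25, 2.25 and 6.96 (log2FC 1.77, SE 0.51, adjusted p = 0.0429) and did not overlap. For Rtp4, a chaperone of receptor trafficking, the libraries were at 6.09, 5.01, 7.5 and 2.98 against 9.21, 8.08, 10.8 and 13.3 CPM (log2FC 0.95, SE 0.27, adjusted p = 0.0439), without overlap.

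Of the other fixed genes in FL skin, Oas2 was at 9.35, 4.74, 7.78 and 3.89 CPM without and 8.44, 8.23, 12.04 and 26.6 with UV, and Mx1 at 3.68, 2.08, 4.06 and 0.94 against 3.88, 2.17, 4.58 and 8.8. Ifit3 was at 1.7, 2.26, 3.34 and 1.6 against 3.96, 2.67, 3.41 and 5.41, and Isg15 at 1.7, 1.11, 1.19 and 1.35 against 2, 0.72, 2.17 and 2.72. FL_UV 4 was the highest irradiated library for all of them. Usp18 was at 2.69, 2.39, 2.59 and 1.22 against 2.64, 4.91, 3.77 and 5.04, and Rsad2 at 3.12, 4.3, 7.13 and 1.72 against 5.41, 3.9, 4.94 and 8.84. All 6 overlapped, and none was called.

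The 7 called genes compare with 3.52% of all 19718 genes called higher, and 0 of the 46 were called lower against 4.09%. Of the 46, 21 had an unadjusted p under 0.05, beside 4520 of all 19718 genes. Every UV library lay above every NoUV library for 11 of the 46 genes, against 6.67% of all genes. The median log2FC was 0.59, beside 0.01 over all genes, and 42 of 46 lay above 0. Monocyte and macrophage markers summed to 348.8 to 1331 CPM in FL_NoUV and 1038 to 1627 in FL_UV, and hair follicle markers reached 4810 CPM in FL_NoUV 4; their part in these changes was not tested. Without FL_NoUV 2 the count was 2, without FL_NoUV 4 or FL_UV 4 it was 3, and without FL_UV 3 it was 4. Calls ended as follows: Irf7 without FL_NoUV 2 (adjusted p = 0.06264), Slfn5 without FL_NoUV 2 or 4 or FL_UV 3 or 4 (0.06447 to 0.08176), and Stat2 without FL_NoUV 1, 2 or 4 or FL_UV 3 or 4 (0.05359 to 0.1076). That of Oasl1 ended without FL_NoUV 1, 2 or 4, FL_UV 1, 2 or 4, cKO_NoUV 2 or 4, or cKO_UV 3 or 4 (0.05389 to 0.1594), and that of Rtp4 without FL_NoUV 1, 2 or 4, FL_UV 1, 3 or 4, cKO_NoUV 4, or cKO_UV 2, 3 or 4 (0.05317 to 0.134). Without the 4 libraries above 1000 CPM of hair follicle markers, a choice made after seeing the data, 1 gene was called, and the adjusted p of Ifit1 was 0.1246.

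**Figure D5:**
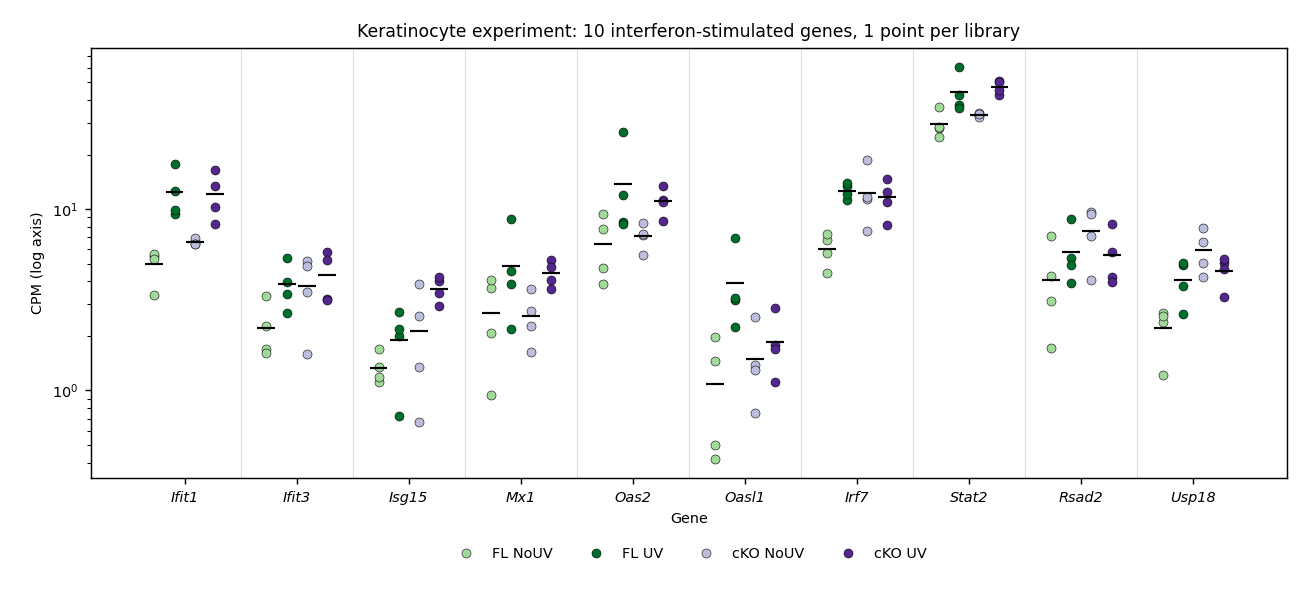
CPM on a log axis (y) for 10 fixed genes (x) in the keratinocyte experiment, with 1 point per mouse and a bar at the mean of each group of 4. Ifit1 is separated by UV in both FL and cKO skin, while the groups of Rsad2 and Ifit3 overlap.

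In cKO skin 3 of the 46 genes rose after UV: Helz2, Ifit1 and Stat2. Helz2 was at 30.4, 26.9, 22.5 and 23.9 CPM without UV and 62.1, 53.1, 47.04 and 50.2 with UV (log2FC 1.035, SE 0.14, adjusted p = 0.00059). Ifit1 was at 6.67, 6.92, 6.45 and 6.4 against 13.5, 16.4, 8.23 and 10.3 (log2FC 0.88, SE 0.245, adjusted p = 0.0324), and Stat2 at 33.95, 33.2, 32.1 and 33.5 against 51.1, 50.1, 42.8 and 45.3 (log2FC 0.51, SE 0.16, adjusted p = 0.0483). None of the 3 overlapped. Slfn5 at 57.2, 72.3, 93.3 and 90.6 against 117, 202, 131 and 144 CPM, Oas2 at 5.6, 7.23, 8.39 and 7.33 against 13.3, 11.2, 10.97 and 8.64, and Mx1 at 1.62, 2.75, 3.61 and 2.26 against 3.62, 5.21, 4.8 and 4.07 were separate between groups too but were not called.

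Other effectors of cKO skin overlapped between UV and NoUV. Irf7 was at 11.4, 11.7, 18.6 and 7.62 CPM without and 14.7, 12.5, 10.97 and 8.19 with UV, and Usp18 at 7.88, 5.03, 4.25 and 6.61 against 5.06, 4.69, 3.29 and 5.31. Isg15 was at 3.86, 2.59, 1.34 and 0.67 against 4.03, 4.21, 3.43 and 2.93, and Oasl1 at 0.75, 1.38, 2.54 and 1.3 against 1.11, 2.84, 1.78 and 1.69. Ifit3 was at 1.58, 3.5, 5.15 and 4.86 against 3.21, 5.77, 3.15 and 5.26, and Rsad2 at 4.06, 7.07, 9.66 and 9.46 against 4.24, 5.77, 3.98 and 8.29. For Irf7, Usp18 and Rsad2 the highest value lay in an unirradiated library.

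The 3 called genes compare with 4.57% of all genes called higher, and 0 of the 46 were called lower against 5.15%. Of the 46, 6 had an unadjusted p under 0.05, a smaller share than the 5007 of all 19718 genes. Groups did not overlap for 7 of the 46, against 8.59% of all genes. The median log2FC was 0.21, beside 0.01, and 35 of 46 lay above 0; it was 0.13 without cKO_NoUV 1 or cKO_UV 2 and 0.36 without cKO_NoUV 3. Helz2 stayed called without any 1 library. The call of Ifit1 ended without any cKO_NoUV library, cKO_UV 1 or cKO_UV 2 (adjusted p from 0.05239 to 0.1174), and in those 6 cases 1 gene was called, while the call of Stat2 ended without any 1 of 13 of the 16 libraries, all except FL_NoUV 3, FL_UV 2 and FL_UV 4 (0.05053 to 0.1161).

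The UV comparisons of WT, KO, FL and cKO skin compare different libraries, but those of WT and KO share a fit, as do those of FL and cKO. Helz2 was called higher in all 4 of them, Stat2 in 3, and Ifit1, Irf7 and Slfn5 in 2 each, while Mx1, Oas2, Oasl1 and Rtp4 were called once and 37 genes never. The lists of KO and FL shared 4 genes (Helz2, Irf7, Slfn5, Stat2), 66.7% of the KO list and 57.1% of the FL list. All 3 genes of the cKO list were in the FL list, of which they made up 42.9%. Of all genes tested, 8.91% in WT, 11.3% in KO, 3.52% in FL and 4.57% in cKO were called higher. How far those lists overlap over all genes was not computed, so the shared calls cannot be read as particular to the 46 genes. Regardless of calls, 18 of the 46 genes had a fitted change above 0 in all 4 comparisons, and 1 had a change below 0 in all 4.

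Between cKO and FL skin without UV, Usp18 and Irf7 differed most. Usp18 was at 2.69, 2.39, 2.59 and 1.22 CPM in FL and 7.88, 5.03, 4.25 and 6.61 in cKO (log2FC 1.43, SE 0.30, unadjusted p = 0.000186, adjusted p = 0.917, edgeR). Irf7 was at 6.8, 4.43, 7.33 and 5.7 against 11.4, 11.7, 18.6 and 7.62 (log2FC 1.03, SE 0.25, adjusted p = 0.923). Neither overlapped, and Ifit1, Ifih1 and Znfx1, an RNA helicase, did not overlap either. Next in p was Xaf1, a proapoptotic partner of XIAP, at 6.94, 6.73, 9.51 and 6.52 CPM in FL and 11.9, 10.2, 9.16 and 11.6 in cKO (log2FC 0.52, SE 0.21). edgeR called 0 of the 46, as it did of all genes (0%), while 5 had an unadjusted p under 0.05, beside 928 of all 19718 genes. DESeq2 called 1, Usp18, beside 0.013% of genes.

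Every cKO_NoUV library exceeded every FL_NoUV library for 5 of the 46 genes, against 1.4% of all genes. The median log2FC was 0.27, with 42 of 46 above 0, and it was 0.18 without FL_NoUV 4 and 0.45 without FL_NoUV 3. All 10 skeletal muscle markers lay above 0 (median 0.96), and 6 of 7 neutrophil markers lay below 0 (median -1.35); their part was not tested. With UV, 0 of the 46 were called by edgeR (0% of all genes) or by DESeq2 (0.0108%). An unadjusted p under 0.05 was found for 2, beside 1046 of all 19718 genes. These were Ifi27, a mitochondrial protein (log2FC 0.41), and Oasl1 (log2FC -1.07). Only Isg15 had no overlap, at 2.93 to 4.21 CPM in cKO_UV and 0.72 to 2.72 in FL_UV, against 1.38% of all genes. The median was -0.04, and its sign changed without some libraries, reaching 0.15 without FL_UV 4. After UV all 11 hair follicle markers tested (median -2.82) and 12 of 13 monocyte and macrophage markers (median -0.51) lay below 0, and all 10 muscle markers above 0 (median 0.95); their part was not tested.

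The difference of the UV effects in cKO and FL skin was not called for any of the 46 genes by edgeR or DESeq2 (0% of all genes by each). In fitted size it lay above 0 for 6 and below 0 for 40, with a median of -0.30, which was -0.14 without FL_NoUV 4, -0.17 without FL_UV 4 and -0.52 without FL_NoUV 3. All 13 monocyte and macrophage markers (median -0.46) and all 11 hair follicle markers tested (median -2.01) lay below 0 too. Above 0 were 6 of 7 neutrophil markers (median 1.12), 8 of 10 keratinocyte markers (median 0.11) and 9 of 13 T cell markers (median 0.25). The part of these markers was not tested. An unadjusted p under 0.05 was reached by Irf7 (log2 difference -1.15, SE 0.35) and Usp18 (-1.26, SE 0.41), beside 248 of all 19718 genes. Both are genes whose unirradiated cKO values were above FL. As the same libraries enter both contrasts, these values are not separate observations.

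The UV effects of the control genotypes were compared across experiments in a joint model of all 28 libraries. The difference of FL from WT was not called for any of the 46 genes, against 1.2% of all genes, and DESeq2 also called 0, against 3.53%. Of the 46, 43 lay above 0 with a median log2 difference of 0.48, which was 0.31 without WT_UV 1, 0.74 without WT_NoUV 2 and 0.87 without WT_UV 3. All 13 monocyte and macrophage markers (median 0.67) and all 8 fibroblast markers (median 0.70) lay above 0 as well. Below 0 were 6 of 7 neutrophil markers (median -0.49) and 7 of 10 keratinocyte markers (median -0.19). The part of these markers was not tested. Of the 46, 4 had an unadjusted p under 0.05, beside 2925 of all 21851 genes. The smallest p belonged to Ifi27l2a (log2 difference 1.82, adjusted p = 0.248), Lgals3bp (1.08, adjusted p = 0.273) and Epsti1 (1.23, adjusted p = 0.358). Lgals3bp, a secreted glycoprotein, was at 70.4, 23.04 and 36.4 CPM in WT_NoUV and 22.9, 39.4 and 44.9 in WT_UV, but at 38.1, 25.2, 50.9 and 23.3 in FL_NoUV and 55.1, 55.35, 75.1 and 58.7 in FL_UV. Epsti1 was at 9.12, 4.77 and 10 against 5.1, 4.05 and 5.04 in WT, and at 4.39, 3.85, 11.02 and 3.26 against 7.16, 6.57, 8.63 and 9.76 in FL. FL and WT belong to different experiments with separate count tables, so genotype, experiment and any batch cannot be told apart. Without WT_UV 3 the joint model called 1 of the 46.

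Most of the 46 genes varied together from mouse to mouse within groups, more of them in the whole-body than in the keratinocyte experiment. As a description over libraries of 1 experiment, each gene's deviations from its group means were compared with the mean deviation of the others. In the whole-body experiment (n = 12) the median r was 0.799, and 42 genes exceeded 0.5; in the keratinocyte experiment (n = 16) the median r was 0.615, and 27 did. Oasl2 was the gene most like the rest in both (r = 0.983 and 0.925), whereas Ifi27 in the whole-body experiment (r = 0.142) and Ifi35 in the keratinocyte experiment (r = -0.438) were least like it. Such values were not computed for other genes, so varying together cannot be read as particular to the 46. Within groups, KO_UV 2 held the highest value of its group for all 46 genes and WT_UV 3 for 39, while WT_NoUV 2 held the lowest for 35. FL_UV 4 was highest of its group for 32 and FL_NoUV 4 lowest for 32. The summed level of the 46 genes was 2492 CPM in KO_UV 2, beside 1639 and 1652 in the other irradiated KO mice, and 758.1 CPM in WT_NoUV 2.

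Interferon transcripts themselves were almost absent. Of 21 interferon ligand genes, 18 had at most 3 counts in every whole-body library and 17 in every keratinocyte library, and 13 and 11 were at 0 throughout. Ifnb1, the first interferon made after sensing, reached 1 count at most. Ifnk, the interferon made by keratinocytes, ranged from 0 to 7 counts and from 0 to 9. Ifng, the type II interferon of T cells and natural killer cells, had 1, 2 and 2 counts in WT_NoUV and 16, 23 and 15 in KO_NoUV (log2FC 3.27, SE 0.74, adjusted p = 0.13, not called). After UV it had 0, 1 and 5 counts in WT and 7, 2 and 8 in KO. Of the 21 ligand genes, 1 (Ifng) passed the filter on low counts in the whole-body experiment and 0 in the keratinocyte experiment. For ligands that were not tested a change was not detectable at these depths. The unirradiated WT and KO groups of Ifng did not overlap (unadjusted p = 0.000652, edgeR).

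Among 11 receptor, kinase and STAT genes, UV was followed by lower levels of 5 in WT, 2 in KO, 1 in FL and 1 in cKO skin, and by higher levels of none. Of all genes, 9.84%, 11.1%, 4.09% and 5.15% were called lower in these comparisons, and counts of 1 or 2 of 11 cannot be told apart from such shares. Ifnlr1, the receptor chain of type III interferon, fell in all 4. It was at 11.9, 12.1 and 15.5 CPM in WT_NoUV and 4.36, 6.53 and 4.7 in WT_UV (log2FC -1.34, SE 0.23, adjusted p = 0.00192), and at 22.1, 20.8, 18.04 and 18.1 against 12.7, 7.94, 10.9 and 10.6 in FL (log2FC -0.90, SE 0.17, adjusted p = 0.0037). No group overlapped, and in KO and cKO the log2FC was -1.29 and -0.99. The call of Ifnlr1 held without any 1 library in all 4 comparisons. Ifnar1, the type I receptor chain, fell in WT from 45.8, 44.4 and 49.7 to 35.2, 31.95 and 39.1 CPM (log2FC -0.40, SE 0.13, adjusted p = 0.0479), a call that ended without any 1 of 11 of the 12 libraries, all except WT_UV 3 (adjusted p from 0.0524 to 0.1595). Cgas, the cytosolic DNA sensor, was not called in any comparison and was at 7.53 to 23.1 CPM in the keratinocyte experiment.

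Of 18 sensing and induction genes, 1 rose and 5 fell in WT, 2 rose and 2 fell in KO, 4 rose and 1 fell in FL, and 3 rose and 1 fell in cKO. The shares of all genes called higher and lower were 8.91% and 9.84% in WT, 11.3% and 11.1% in KO, 3.52% and 4.09% in FL, and 4.57% and 5.15% in cKO. Ifi205, an interferon-inducible DNA-binding protein, was at 14.7, 4.25, 15.96 and 3.29 CPM in FL_NoUV and 41.7, 92.6, 62.8 and 70.8 in FL_UV (log2FC 2.84, SE 0.47, adjusted p = 0.00226), and at 9.04, 10.3, 19.5 and 9.38 against 30.9, 54.4, 46.9 and 52.04 in cKO (log2FC 1.93, SE 0.45, adjusted p = 0.0148). Neither of these 2 calls ended without any 1 library, and neither pair overlapped. Ifi205 was called higher in WT too (log2FC 1.16, SE 0.32, adjusted p = 0.0242), although the groups overlapped. That call ended without WT_NoUV 2 or 3 or WT_UV 3 (adjusted p from 0.05836 to 0.1212). In KO it was not called, at 61.4, 75.4 and 60.3 CPM without and 103, 141 and 132 with UV, without overlap. Ifi204 rose in KO (log2FC 1.42, SE 0.31, adjusted p = 0.00551) and FL (log2FC 1.745, SE 0.355, adjusted p = 0.00738). Sting1, the adaptor of cytosolic DNA sensing, was at 9.78, 8.96, 7.79 and 8 CPM in cKO_NoUV and 13.95, 19.9, 13.3 and 26.4 in cKO_UV (log2FC 1.095, SE 0.26, adjusted p = 0.0145), and the call ended without cKO_UV 4 (adjusted p = 0.05212). It was called higher in FL as well (log2FC 0.91, SE 0.26, adjusted p = 0.0415). Traf3, an adaptor upstream of IRF3, fell in all 4, with log2FC -0.65 in WT, -0.77 in KO, -0.62 in FL and -0.71 in cKO. Its call ended in WT without WT_UV 3 (adjusted p = 0.0528), and in FL without FL_NoUV 2 or 4 or FL_UV 1, 3 or 4 (0.05156 to 0.06436).

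Among the other IRF genes, Irf2, Irf8 and Irf2bp2 fell in both WT and KO, whereas none of the list was called in FL or cKO. Irf2, a repressor of ISRE promoters, was at 32.4, 35.3 and 38.3 CPM in WT_NoUV and 18.4, 13.2 and 14.5 in WT_UV (log2FC -1.20, SE 0.16, adjusted p = 0.000508), and at 49.8, 50.3 and 47.35 against 18.5, 19.5 and 15.7 in KO (log2FC -1.46, SE 0.16, adjusted p = 0.000133). In WT the call of Irf2bp2 ended without WT_NoUV 2 or 3, WT_UV 2 or 3 or KO_NoUV 2 (adjusted p from 0.05029 to 0.08288). The call of Irf8 ended in WT without WT_NoUV 3 (0.055) or WT_UV 3 (0.0548), and in KO without any KO_NoUV library, KO_UV 1 or KO_UV 3 (0.05745 to 0.1032). In FL, Irf2 was at 36.3, 33.4, 44.3 and 36.6 against 29.25, 29.9, 34.3 and 32.2. The UV effect on Irf2 was higher in FL than in WT in the joint model (log2 difference 0.925, SE 0.21, adjusted p = 0.0269), a call that ended without FL_NoUV 2, FL_UV 3, WT_NoUV 2 or 3, or WT_UV 2 (adjusted p from 0.05125 to 0.0877). Of 12 feedback and clearance genes, Socs3, which inhibits JAK kinases, rose in all 4: its log2FC was 1.99 in WT, 2.31 in KO, 2.09 in FL and 1.98 in cKO, and no call ended without any 1 library. In WT it was at 21.5, 13.9 and 11.6 CPM without and 45.5, 92.3 and 49.7 with UV, and in KO at 20.3, 14.4 and 23.2 against 112, 119.92 and 56.5. Pias1, an inhibitor of STAT signalling, fell in all 4 (log2FC -0.76, -0.83, -0.40 and -0.58 in WT, KO, FL and cKO), where the call in FL ended without FL_NoUV 3 or FL_UV 2, 3 or 4 (adjusted p from 0.0564 to 0.07474).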

How the data were processed

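Skin RNA of 28 mice was sequenced in pairs after removal of ribosomal RNA with a stranded kit. The submitters' processing notes name cutadapt 4.6, HISAT2 2.1.0, featureCounts of Subread (version not given) and the GRCm38 build. The deposited values are raw counts per gene, with a gene length column that the authors included for each gene (unit: other, in bases). How strand and multiply aligned reads were treated is not given in the sources used here, so near-identical genes (Ifit3 and Ifit3b, Oas1a, Slfn8, Trim30a) have uncertain counts. Positions matched GRCm38 for 99.77% of 55480 genes of the whole-body table and 2.79% of 51884 of the keratinocyte table, so genes were joined by identifier and positions were taken from the former. The number of unused columns was 0.

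Groups came from the titles. Counts were tested with edgeR 4.0.16 (limma 3.58.1, R 4.3.3): filterByExpr, TMM, robust quasi-likelihood fit with 1 coefficient per group, experiments fitted separately, and 1 joint model for the difference between them. Tests are two-sided, with Benjamini-Hochberg adjustment over all genes tested (20365, 19718 and 21851) and a threshold of 0.05, and a gene past it is termed called. log2FC is the log2 fold change with a prior count of 0.125, and its SE was derived from the quasi-likelihood F statistic. CPM is counts per M after TMM. Code was tested on simulated data with 200 changed genes per experiment. P-values reflect the spread between libraries within groups, estimated for each gene over all groups of a fit and moderated across genes. No library duplicated another of its own group, and pairs across groups were not part of this check.

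The 46 genes, the 10 fixed genes, the other gene lists and the alternatives were chosen with earlier results of these data known. Named were the 10 fixed genes, up to 8 called genes of smallest p per UV comparison, every called gene elsewhere (otherwise the 3 of smallest p), the 3 most and least abundant per length, and up to 5 called genes per other list, with Ifnb1, Ifnk, Ifnar1, Cgas and Vsir. Some genes that fall under this rule are not reported here. Other genes named beyond this rule (Ifng, and the genes of a count of 5 or fewer) were chosen after their values were seen. Alternatives were DESeq2 1.42.0, other scaling, no filter, only the groups compared, a replicate block and leaving out libraries. Figures were drawn with matplotlib 3.10.9 in Python 3.11.15.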

Additional observations from a re-analysis of the deposited data

Results flagged for a closer look

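In groups of 4, a library whose gap to its nearest neighbour exceeded Dixon's 95% critical value was picked out, which chance does for about 1 in 20 groups; 6 of 100 screens did so. Ifit1 was at 3.35 CPM in FL_NoUV 4, below 5.29 to 5.67 in the other FL_NoUV libraries. Xaf1 was at 9.51 CPM in FL_NoUV 3, above 6.52 to 6.94, and Epsti1 was at 11.02 CPM in the same library, above 3.26 to 4.39. Trim25 was at 87.55 CPM in FL_UV 3, above 67.62 to 70.69. Helz2 was at 55.85 CPM in FL_UV 4, above 41.06 to 43.11. Epsti1 was at 3.13 CPM in cKO_UV 1, below 7.54 to 8.04.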

How the results depend on the processing

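Counts of the 46 genes called depend on the setting. UV in WT: 1 called higher became 2 with DESeq2, and 0 with only the 2 groups compared, with a replicate block, without KO_NoUV 2 and KO_UV 3, or without WT_NoUV 3 and WT_UV 3. UV in KO: 6 became 12 with only the 2 groups compared and 2 without KO_NoUV 2 and KO_UV 3. UV in FL: 7 became 15 with DESeq2, 4 with no filter, 3 with only the 2 groups compared, 4 without the libraries under 10 M counts, and 1 without the 4 libraries rich in hair follicle genes. UV in cKO: 3 became 1 with library size only and 1 with no filter. KO against WT: 0 became 3 with DESeq2 and 2 with no filter without UV, and with UV 20 with DESeq2, 8 with no filter and 10 without WT_NoUV 3 and WT_UV 3. cKO against FL without UV: 0 became 1 with DESeq2. Leaving out 1 library gave 0 to 6 (UV in WT; 0 without KO_NoUV 1, 2 or 3, KO_UV 1 or 2, WT_NoUV 2, or WT_UV 2 or 3, and 2 without WT_UV 1), 2 to 9 (KO), 2 to 10 (FL), 1 to 4 (cKO), 0 to 5 (KO against WT with UV), 0 to 1 (FL minus WT) and 0 to 0 in the other 5 comparisons. The median of cKO against FL with UV, -0.039, became 0.118 without the hair follicle libraries and 0.046 without those under 10 M, and ranged from -0.114 to 0.151 without 1 library; that of UV in WT, -0.029, ranged from -0.332 to 0.169. The libraries left out in groups were chosen after seeing the data. Same-numbered libraries were not taken as pairs, since not every such pair correlated above 0.1: 11 of 18 (whole-body) and 13 of 24 (keratinocyte) did, beside 7 of 36 and 24 of 72 pairs of different number (median r 0.16 and 0.218 against -0.057 and -0.045). This rule cannot exclude a block shared by same-numbered libraries. In the keratinocyte experiment the numbers in the column names rise with the replicate number in every group, and no label says what they stand for. With the replicate block the counts in KO, FL and cKO were 5, 9 and 4. With it Irf7 was not called in KO (adjusted p = 0.05565) nor Stat2 in cKO (0.05296, edgeR), while Ifitm3 and Slfn5 were called in cKO. Of the libraries, 7 of 12 and 10 of 16 correlated best with their own number. Of 1102 values of 51 printed fold changes, 936 kept their side of the threshold, 127 lost a call, 39 gained one and 0 changed sign. These 51 all had an unadjusted p under 0.05 (edgeR), a choice that favours a stable sign. Of 80 other fold changes of the named genes, with an unadjusted p over 0.05, 36 changed sign in at least 1 alternative and 5 were called in at least 1. For 55 fold changes of other pathway genes, of which 52 were called, 949 of 1176 values kept their side, 226 lost a call, 1 gained one and 0 changed sign. The causes were not tested. The depth of the 2 libraries under 10 M limits low genes such as Oasl1.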
